A study of Mus musculus with 8 samples.

Results

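The glucocorticoid receptor gene *Nr3c1* and 7 genes that respond to or supply its ligand (*Fkbp5*, *Tsc22d3*, *Klf15*, *Klf9*, *Zbtb16*, *Sgk1* and *Hsd11b1*) were followed in dystrophic muscle. They were taken by gene symbol, and each of the 8 symbols matched 1 of the 55401 genes in the deposited table. Bulk RNA-seq was made from whole tibialis anterior (TA) muscles of male mice 6 mo old on the C57/Bl6 strain, with 4 samples labelled *mdx5cv* and 4 labelled wild-type (WT). *mdx5cv* is a model of Duchenne muscular dystrophy (DMD) that carries a mutation of the dystrophin gene *Dmd* in every cell, and the labels name no drug or hormone given to either group. The values are normalized counts, that is, reads per gene divided by a size factor for each muscle, and each muscle gave between 13175524 and 14921057 reads.

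Glucocorticoids are adrenal steroid hormones whose blood levels follow the time of day, feeding and stress. The hormone enters the cell and binds the glucocorticoid receptor, which leaves its chaperones, moves to the nucleus and switches genes on or off at glucocorticoid response elements. In skeletal muscle the receptor is known for driving amino acid breakdown and fiber atrophy when hormone is in excess, and synthetic glucocorticoids are a standard treatment of DMD. No hormone level was measured here, and the time of day at which the muscles were taken is not given in the sources used here.

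RefSeq promoter windows on GRCm38.p6, from 250 bases before to 50 bases after an annotated start, were used for 6 of the 8 genes, 13 windows in all. The windows were searched on both strands for the palindromic response element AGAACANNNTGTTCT, for its half-site AGAACA, which is contained in the full element, and for the E-box CACGTG bound by the clock proteins CLOCK and ARNTL. The full element occurred in 1 of the 13 windows, at a start of *Sgk1* (transcript Sgk1-202), where it began 189 bases before the start, and 3 of the 32851 windows of all genes (0.00913%) held it. Half-sites occurred in 4 of the 13 windows, against 19% of all windows, and E-boxes in 3 of the 13, against 7.15% of all windows. The 3 windows printed here hold these E-boxes and the full element, shown 5′ to 3′ on the strand of the gene with the response element and the E-boxes in capitals. The *Sgk1* window lies at chr10:21993640-21993939 on the plus strand, and its E-box, which overlaps a half-site, began 246 bases before the start. The *Klf15* window lies at chr6:90462326-90462625 on the plus strand, with E-boxes that began 228, 172 and 3 bases before the start. The *Fkbp5* window lies at chr17:28486100-28486399 on the minus strand, with 1 E-box that began 169 bases before the start.
Sgk1: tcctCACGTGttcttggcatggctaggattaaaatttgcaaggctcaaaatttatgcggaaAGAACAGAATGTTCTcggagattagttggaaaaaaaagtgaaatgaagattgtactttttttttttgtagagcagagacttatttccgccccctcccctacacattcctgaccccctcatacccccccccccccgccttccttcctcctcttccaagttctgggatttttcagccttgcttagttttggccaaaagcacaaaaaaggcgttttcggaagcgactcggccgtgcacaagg
Klf15: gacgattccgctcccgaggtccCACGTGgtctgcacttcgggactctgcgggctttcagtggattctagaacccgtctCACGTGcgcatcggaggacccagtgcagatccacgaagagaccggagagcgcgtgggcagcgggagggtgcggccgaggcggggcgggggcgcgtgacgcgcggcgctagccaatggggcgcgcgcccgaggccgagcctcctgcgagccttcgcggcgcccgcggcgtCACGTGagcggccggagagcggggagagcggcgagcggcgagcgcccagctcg
Fkbp5: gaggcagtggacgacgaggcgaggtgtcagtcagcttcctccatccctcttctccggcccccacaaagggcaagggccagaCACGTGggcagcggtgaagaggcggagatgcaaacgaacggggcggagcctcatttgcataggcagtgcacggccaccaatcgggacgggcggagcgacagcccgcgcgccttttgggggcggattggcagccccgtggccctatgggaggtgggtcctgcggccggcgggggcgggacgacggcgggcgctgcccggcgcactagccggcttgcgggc
A match is a description of these letters and was not tested for binding. *Sgk1* has 6 such windows and *Tsc22d3* has 3, and counts per gene do not show which start was used.

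In *mdx5cv* TA muscle, *Sgk1*, *Zbtb16*, *Tsc22d3* and *Klf9* decreased to 0.652, 0.624, 0.708 and 0.753 of the WT level, and the receptor gene *Nr3c1* stood at 0.981 of the WT level. By limma with Benjamini-Hochberg adjustment over all 13677 genes tested, those averaging 10 or more normalized counts, these 4 of the 8 genes passed the test (adjusted p under 0.05) with a lower level in *mdx5cv*. Over all tested genes 20.1% passed with a lower and 20.9% with a higher level. None of the 8 passed with a higher level by limma on the normalized counts, at an unadjusted p under 0.05, by edgeR or by DESeq2. None also passed by limma the threshold on size that the study's methods add, an absolute log2 value of 1 or more, which 3.27% of all tested genes passed in the lower direction. All 8 log2 fold changes were below 0, with a median of -0.47 where that of all tested genes was 0.00. When all libraries were given equal totals, *Nr3c1* and *Klf15* turned above 0. By limma none of the 8 genes then passed with a lower level, and *Nr3c1* passed with a higher one (adjusted p = 0.0227). In whole muscle, fewer cells of a type and less RNA per cell cannot be told apart.

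**Figure D1:**
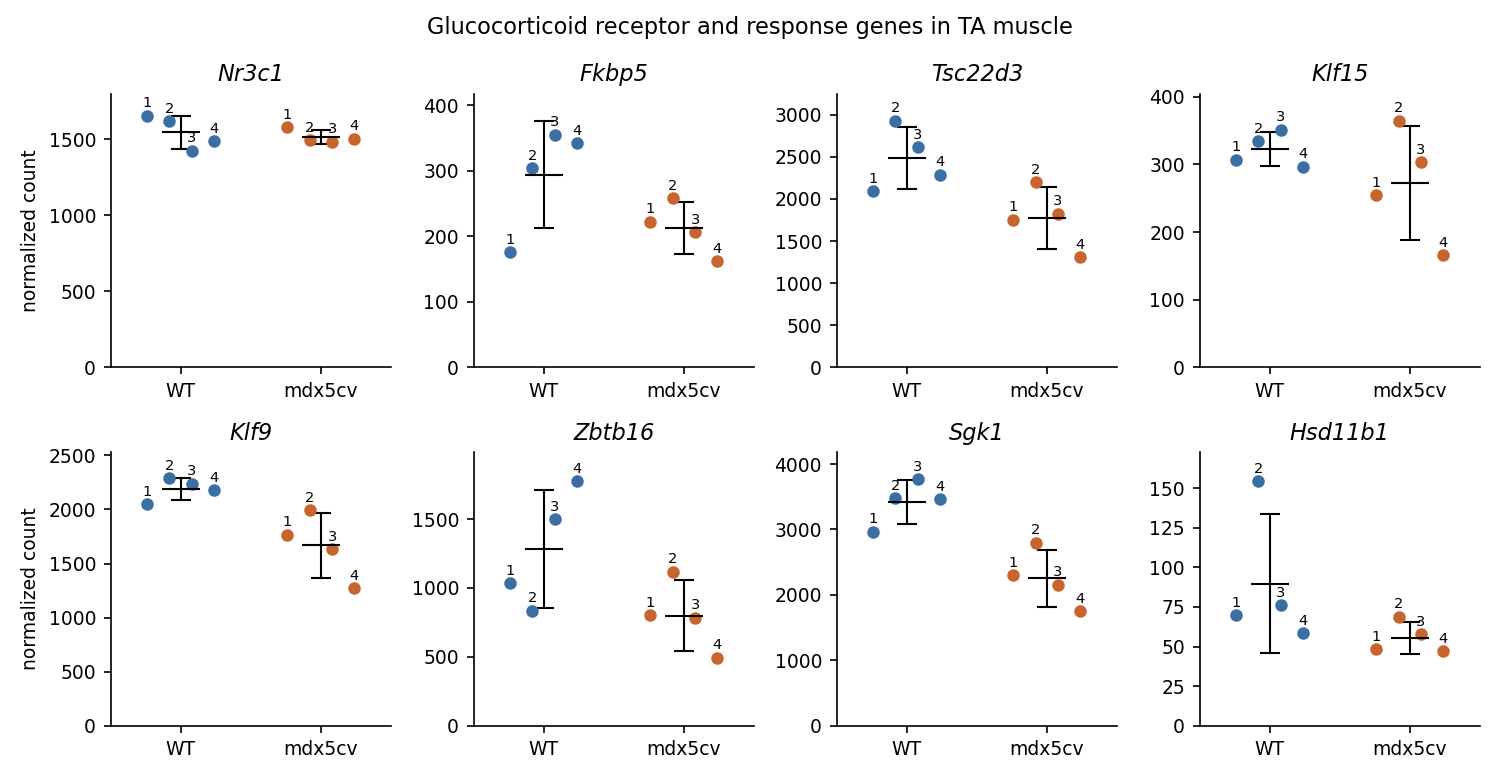
Normalized count (vertical axes, from 0) of each gene in the 4 WT (blue) and 4 *mdx5cv* (orange) TA muscles, with replicate numbers above the points and bars for the mean ± SD (n = 4). The groups do not overlap for *Klf9* and *Sgk1*, and *mdx5cv* 4 is the lowest *mdx5cv* muscle for 7 of the 8 genes.

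*Nr3c1* encodes the glucocorticoid receptor, a nuclear hormone receptor present in nearly all cell types. Its normalized counts were 1656, 1620, 1425 and 1486 in WT 1 to 4 and 1580, 1492, 1484 and 1504 in *mdx5cv* 1 to 4. The *mdx5cv* muscles all lay within the range of the WT muscles. The log2 fold change was -0.03 ± 0.092 (SE), with a limma adjusted p of 0.835, and the 95% interval ran from -0.23 to 0.17, or 0.855 to 1.13-fold. With libraries scaled to equal totals rather than by size factors, the median of all tested genes moved to 0.36 and *Nr3c1* to 0.33 (limma adjusted p = 0.0227). Relative to the median of all genes, *Nr3c1* was at -0.03 under both scalings, as a shift of all genes together leaves this value nearly unchanged by construction.

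*Hsd11b1* encodes the enzyme 11β-hydroxysteroid dehydrogenase type 1, which regenerates active glucocorticoid from its inactive form inside cells. Normalized counts of *Hsd11b1* were 69.9, 155, 76.3 and 58.3 in WT 1 to 4 and 48.2, 68.9, 57.6 and 47.1 in *mdx5cv* 1 to 4. WT 2 was by far the highest muscle, and the ranges of the groups overlapped. The log2 fold change was -0.60 ± 0.26 (SE), with a 95% interval from -1.16 to -0.03 and a limma adjusted p of 0.0844, so the difference did not pass the test. Without WT 2 the log2 fold change was -0.30 (limma adjusted p = 0.226), and without WT 4 it was -0.77 (limma adjusted p = 0.0359).

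*Fkbp5* encodes FKBP51, a cochaperone that lowers the receptor's affinity for hormone and is itself induced by the receptor. Its normalized counts were 175, 304, 355 and 342 in WT 1 to 4 and 222, 258, 206 and 162 in *mdx5cv* 1 to 4. WT 1 stood apart from the other WT muscles and fell within the *mdx5cv* range, while WT 2 to 4 lay above every *mdx5cv* muscle. The log2 fold change was -0.44 ± 0.21 (SE) with a 95% interval from -0.89 to 0.014, and limma gave an adjusted p of 0.112. Without WT 1 it was -0.67, with a limma adjusted p of 0.00713.

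*Tsc22d3* encodes GILZ, a leucine zipper protein that carries part of the anti-inflammatory action of glucocorticoids. *Tsc22d3* had normalized counts of 2096, 2932, 2618 and 2288 in WT 1 to 4 and 1753, 2199, 1826 and 1310 in *mdx5cv* 1 to 4. Only *mdx5cv* 2 reached the WT range. *Tsc22d3* decreased by 0.50 ± 0.15 (SE) on the log2 scale, with a limma adjusted p of 0.0188. Without WT 3 the log2 fold change was -0.47 and the limma adjusted p rose to 0.0544.

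*Sgk1* encodes a serum- and glucocorticoid-regulated kinase that acts on ion transport and on the maintenance of muscle mass. Its normalized counts were 2966, 3478, 3774 and 3459 in WT 1 to 4 and 2298, 2798, 2156 and 1754 in *mdx5cv* 1 to 4. All *mdx5cv* muscles were below all WT muscles. *Sgk1* decreased by 0.62 ± 0.14 (SE) on the log2 scale, with a limma adjusted p of 0.00298. Among the 6 genes whose promoter windows were used, the full response element was found for *Sgk1*. Its log2 fold change stayed between -0.73 and -0.50 when any single muscle was left out, and its limma adjusted p was at most 0.0134.

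*Klf9* and *Klf15* encode Krüppel-like transcription factors induced by the receptor, and KLF15 drives genes of branched-chain amino acid breakdown in muscle. The *Klf9* normalized counts were 2048, 2291, 2238 and 2176 in WT 1 to 4 and 1766, 1994, 1633 and 1275 in *mdx5cv* 1 to 4. The groups did not overlap for *Klf9*, which decreased by 0.41 ± 0.13 (SE) on the log2 scale with a limma adjusted p of 0.0204. Over all tested genes, 19.8% had groups that did not overlap with *mdx5cv* lower, and *Klf9* and *Sgk1* were the 2 such genes among the 8. Without WT 3 the limma adjusted p of *Klf9* was 0.0533. The *Klf15* normalized counts were 307, 335, 352 and 297 in WT 1 to 4 and 255, 365, 303 and 165 in *mdx5cv* 1 to 4. *Klf15* was highest of all muscles in *mdx5cv* 2 and lowest of all in *mdx5cv* 4. Its log2 fold change was -0.30 ± 0.19 (SE) with a 95% interval from -0.71 to 0.12 and a limma adjusted p of 0.238, and without *mdx5cv* 4 it was -0.08.

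*Zbtb16* encodes PLZF, a zinc finger transcription factor that is strongly induced by glucocorticoids in many cell types. Normalized counts of *Zbtb16* were 1034, 835, 1498 and 1776 in WT 1 to 4 and 802, 1120, 783 and 494 in *mdx5cv* 1 to 4. WT 2 lay close to the *mdx5cv* muscles and below *mdx5cv* 2, and the groups overlapped. *Zbtb16* decreased by 0.68 ± 0.25 (SE) on the log2 scale, with a limma adjusted p of 0.0425. This call was lost when any 1 of WT 1, WT 3, WT 4, *mdx5cv* 1, *mdx5cv* 3 or *mdx5cv* 4 was left out, with limma adjusted p from 0.0506 to 0.130, and with the replicate number as a block, with a limma adjusted p of 0.0623.

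**Figure D2:**
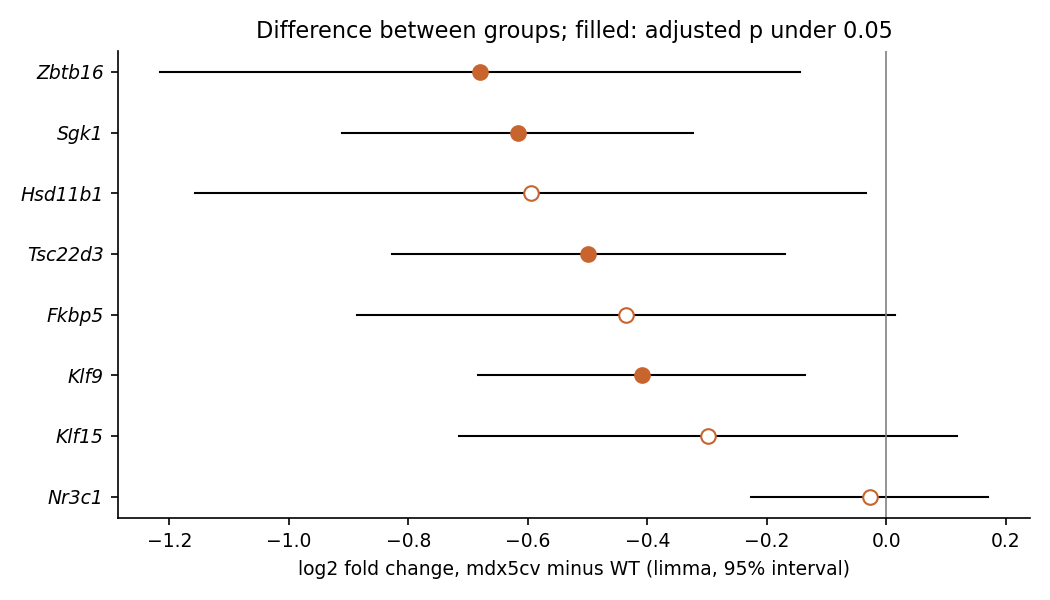
Log2 fold change, *mdx5cv* minus WT, of each gene (points) with its 95% interval from limma (lines) over 4 muscles per group. Filled points passed an adjusted p under 0.05, and these are *Sgk1*, *Zbtb16*, *Tsc22d3* and *Klf9*, all to the left of 0.

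The scaling of the libraries bears on these falls. With equal totals, the median of all tested genes moved by 0.36, none of the 8 genes was lower by limma at an adjusted p under 0.05, and *Klf15* turned to 0.06. Relative to the median of all genes the values barely moved, at -0.62 for *Sgk1*, -0.68 for *Zbtb16*, -0.50 for *Tsc22d3*, -0.41 for *Klf9* and -0.30 for *Klf15* under both scalings. A scaling shifts all genes of a muscle together, so these relative values stay nearly the same by construction and do not test the scaling. Among all tested genes, 10.65% had a lower log2 fold change than *Sgk1*, 8.533% a lower one than *Zbtb16* and 47.61% a lower one than *Nr3c1*. The 4 falls also passed with edgeR on recovered reads (adjusted p 0.00512 for *Sgk1*, 0.0269 for *Tsc22d3*, 0.0320 for *Klf9* and 0.0435 for *Zbtb16*) and with DESeq2 (adjusted p from 0.000285 to 0.0265).

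Levels of different genes were compared as mean normalized counts per kb of exon. In WT the order was *Sgk1* (697), *Tsc22d3* (572), *Klf9* (454), *Zbtb16* (243), *Nr3c1* (201), *Klf15* (116), *Fkbp5* (31.1) and *Hsd11b1* (21.1). The ranges of the 4 WT muscles overlapped between the neighbours *Sgk1* and *Tsc22d3*, *Zbtb16* and *Nr3c1*, and *Fkbp5* and *Hsd11b1*, and were apart for the other neighbours. In *mdx5cv* the order was *Sgk1* (459), *Tsc22d3* (408), *Klf9* (346), *Nr3c1* (197), *Zbtb16* (151), *Klf15* (97.5), *Fkbp5* (22.4) and *Hsd11b1* (13.0). *Nr3c1* and *Zbtb16* thus changed places, with overlapping ranges in both groups. In *mdx5cv* the ranges also overlapped between *Sgk1* and *Tsc22d3*, *Tsc22d3* and *Klf9*, and *Zbtb16* and *Klf15*.

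The muscles of each group did not share 1 level of these genes. Within *mdx5cv*, muscle 4 had the lowest level of 7 of the 8 genes and muscle 2 the highest of 7 of the 8, with *Nr3c1* the exception in each case. The share of all tested genes with this order is not given here. Muscle 4 also had the largest size factor, at 1.25 against 1.06 to 1.11 in the other *mdx5cv* muscles. Within WT, muscle 1 had the lowest level of *Fkbp5*, *Tsc22d3*, *Klf9* and *Sgk1*. The median log2 deviation of the 8 genes from the WT mean was -0.42, -0.14, -0.44 and -0.86 in *mdx5cv* 1 to 4 and ranged from -0.22 to 0.11 in the WT muscles. The lowest WT muscle, WT 1, was thus below *mdx5cv* 2.

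**Figure D3:**
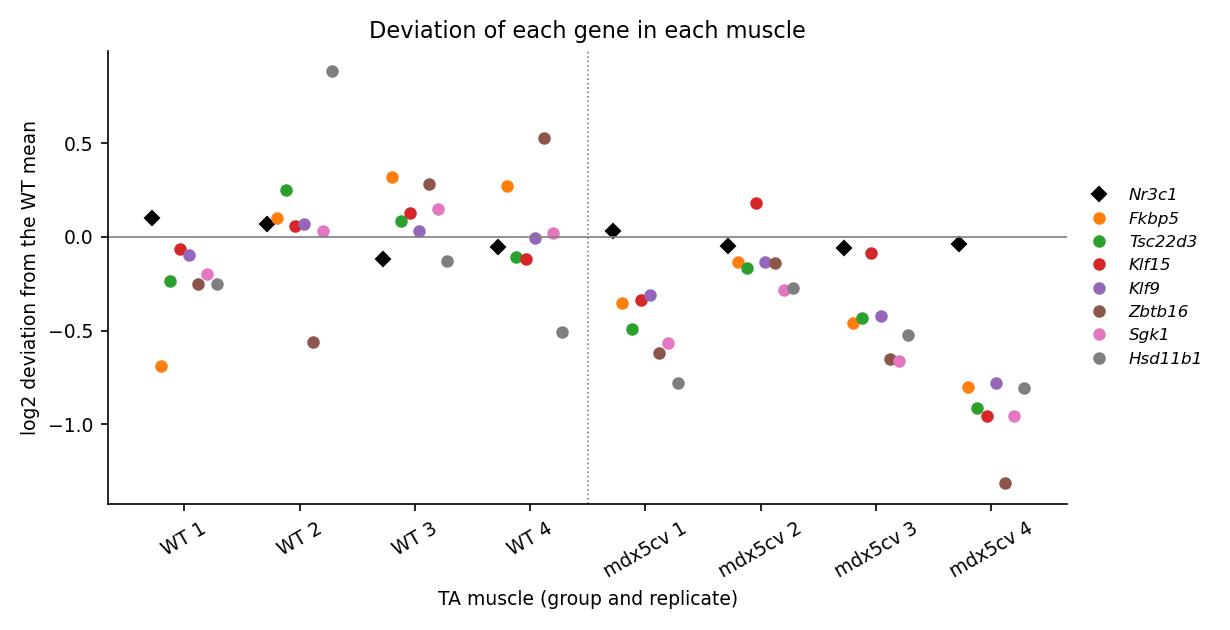
Log2 deviation of each gene from its WT mean (vertical axis) in each TA muscle (horizontal axis), with *Nr3c1* as black diamonds and the other 7 genes as colored circles. Among the *mdx5cv* muscles, the 7 genes other than *Nr3c1* are lowest in *mdx5cv* 4 and highest in *mdx5cv* 2, while *Nr3c1* lies close to 0 in every muscle.

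After the mean of each group was taken off, *Tsc22d3*, *Klf9*, *Klf15* and *Sgk1* varied together over the 8 muscles. Their 6 pairs had a Pearson r from 0.86 to 0.94, highest for *Klf9* with *Sgk1*. *Fkbp5* followed *Sgk1* with an r of 0.83, and *Zbtb16* followed *Sgk1* with an r of 0.75. *Nr3c1* had an r below 0 in 6 of its 7 pairs, from -0.62 with *Fkbp5* to 0.28 with *Hsd11b1*. These r values describe 8 libraries whose size factors and fiber markers also varied, and they carry no test.

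**Figure D4:**
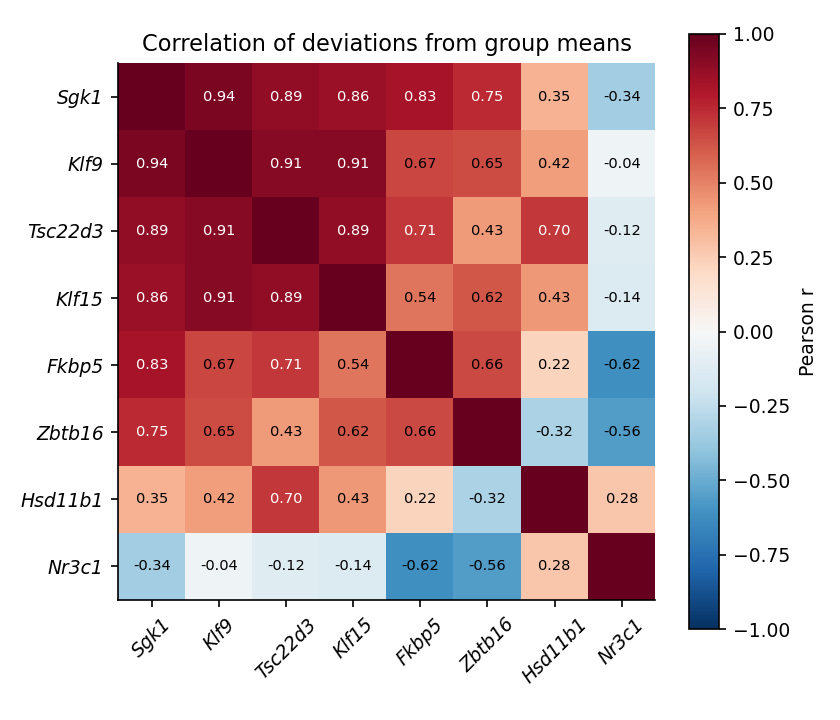
Pearson r between genes of the log2 level after the mean of each group was taken off, over 8 TA muscles (red above 0, blue below 0). *Sgk1*, *Klf9*, *Tsc22d3* and *Klf15* form a block with r from 0.86 to 0.94, and the *Nr3c1* row is mostly below 0.

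By the same measure, over 7640 genes that averaged 100 or more normalized counts, the genes most like *Nr3c1* were *Kcnq5* (r = 0.97), *Ambra1* (0.96), *Qser1* (0.96), *1810026B05Rik* (0.95) and *Arhgap35* (0.95). Those most like *Fkbp5* were *Dtx3* (0.96), *Ptges3l* (0.96), *Capn3* (0.95), *Cops7a* (0.95) and *Rangap1* (0.94). Of these 10 genes, *Kcnq5* was higher in *mdx5cv*, by a log2 value of 1.13 (limma adjusted p = 9.87e-06), and *Arhgap35*, *Capn3* and *Cops7a* were lower, by -0.35, -0.36 and -0.50 (limma adjusted p = 0.0104, 0.0108 and 0.00226). The highest r values among 7640 genes over 8 muscles can be high by chance, and they carry no test. *Nr3c1* itself varied little, from -0.12 to 0.10 around its WT mean on the log2 scale.

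The receptor is held ready for hormone by HSP90, HSP70 and their cochaperones. Of 8 such genes tested, 2 were lower in *mdx5cv*, where 20.1% of all tested genes were, with a median log2 fold change of -0.19 over the list. Without WT 2, 4 of the 8 were lower, and with equal totals none was lower and 2 were higher by limma. *Hspa8*, the constitutive HSP70, had counts of 7696 to 9848 in WT and 5486 to 6761 in *mdx5cv* and decreased by 0.57 ± 0.12 (SE) on the log2 scale (limma adjusted p = 0.00196). *Stip1*, which hands clients from HSP70 to HSP90, ranged from 614 to 849 in WT and from 495 to 536 in *mdx5cv* and decreased by 0.52 ± 0.11 (SE; limma adjusted p = 0.00237). The groups did not overlap for *Hspa8* or *Stip1*, and neither passed with equal totals (-0.21 and -0.17 on the log2 scale). *Hsp90aa1*, the inducible HSP90, had a log2 fold change of 0.26 with a limma adjusted p of 0.162, and with equal totals it was higher (0.62, limma adjusted p = 0.0167).

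Of 6 genes of steroid metabolism and mineralocorticoid signaling, 3 reached the level needed for the test and none passed it by limma, at an unadjusted p under 0.05, by edgeR or by DESeq2. With equal totals *H6pd* (0.56, limma adjusted p = 0.00707) and *Por* (0.83, limma adjusted p = 0.0209) were higher, with the replicate block or without WT 4 1 gene was higher, and without *mdx5cv* 2 1 was lower. *Nr3c2*, the mineralocorticoid receptor, which also binds glucocorticoids, had counts of 314 to 352 in WT and 233 to 343 in *mdx5cv*, with a log2 fold change of -0.27 (95% interval -0.56 to 0.018, limma adjusted p = 0.123). *H6pd*, which supplies the cofactor of the *Hsd11b1* enzyme, had a log2 fold change of 0.20 (limma adjusted p = 0.233). *Hsd11b2*, the enzyme that inactivates glucocorticoid, had reads in *mdx5cv* 3 alone, and the adrenal gene *Cyp11b1* had no read in any muscle. Among the receptor coregulators, *Ncor1*, a corepressor, had a log2 fold change of -0.15 (limma adjusted p = 0.181).

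Other genes known to be induced by glucocorticoids changed in both directions. Of 28, 26 were tested, 8 were higher and 3 lower in *mdx5cv*, where 20.9% and 20.1% of all tested genes were, and the median log2 fold change was 0.03. The counts depended on the setting, with 13 higher and 2 lower with equal totals, 9 higher and 7 lower with the replicate block, and 7 higher and 7 lower both with centring on the median and without *mdx5cv* 2. The highest was *Cdkn1a*, a cell cycle inhibitor also induced by p53, with counts of 17.6 to 35.0 in WT and 190 to 496 in *mdx5cv* and a log2 fold change of 3.54 ± 0.29 (SE; limma adjusted p = 2.44e-06). *Mt2*, a metal-binding metallothionein, followed with counts of 6.36 to 14.9 in WT and 48.6 to 119 in *mdx5cv* and a log2 fold change of 2.85 ± 0.33 (SE; limma adjusted p = 2.87e-05). *Mt1*, *Anxa1*, *Cgref1*, *Cdkn1c*, *Zfp36* and *Glul* were the other 6 that were higher. *Cgref1* averaged 9.63 in WT and reached the level needed for the test only through *mdx5cv*. A minimum of 10 in every sample took *Mt2*, *Cgref1* and *Cblb* out of the test, with 6 higher and 2 lower. The call of *Zfp36* was lost with centring on the median and without any 1 of WT 1, WT 2, *mdx5cv* 1, *mdx5cv* 2 or *mdx5cv* 4 (limma adjusted p from 0.0542 to 0.0801). *Mstn*, which encodes the muscle growth inhibitor myostatin, fell from 448 to 655 in WT to 63.2 to 104 in *mdx5cv*, a log2 fold change of -2.73 ± 0.17 (SE; limma adjusted p = 4.78e-07). *Cblb*, a ubiquitin ligase, had counts of 276 to 363 in WT and no read in the 4 *mdx5cv* muscles, and was at least 124.9-fold lower against a floor of 3 reads per library. These zeros were taken from the table as deposited and were not checked against the sequencing reads. *Per1*, a clock gene with a response element of its own, had a log2 fold change of -0.03 (limma adjusted p = 0.905). *Fbxo32*, an atrophy ubiquitin ligase, was the other gene that was lower, a call that was lost with equal totals and without any 1 of WT 1, WT 2, *mdx5cv* 3 or *mdx5cv* 4 (limma adjusted p from 0.0623 to 0.199).

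Genes linked to KLF15, mostly of branched-chain and other amino acid breakdown, were lower in *mdx5cv* for 5 of the 8 tested. Over all tested genes, 20.1% were lower. The list has 9 genes, and its median log2 fold change was -0.65. *Slc25a20*, the mitochondrial carnitine carrier, ranged from 573 to 893 in WT and from 259 to 350 in *mdx5cv* and decreased by 1.18 ± 0.15 (SE) on the log2 scale (limma adjusted p = 5.09e-05). *Gpt2*, mitochondrial alanine aminotransferase, ranged from 2722 to 3722 in WT and from 1007 to 1740 in *mdx5cv* and decreased by 1.12 ± 0.16 (SE; limma adjusted p = 0.000147). *Bckdha* and *Dbt*, subunits of the branched-chain ketoacid dehydrogenase, decreased by 0.79 and 0.50 on the log2 scale (limma adjusted p = 0.00385 and 0.0181). *Prodh*, proline dehydrogenase, was the fifth that was lower. *Dbt* no longer passed without WT 1 or without WT 3 (limma adjusted p = 0.0537 and 0.0640), and *Prodh* no longer passed without any 1 of 5 muscles (limma adjusted p from 0.0508 to 0.0893). *Bcat2*, which starts branched-chain breakdown and is a known KLF15 target, had a log2 fold change of -0.07 (limma adjusted p = 0.760). With equal totals, 3 genes of this list were lower and none higher by limma, and without WT 3 the count of lower genes was also 3. With each muscle centred on the mean of fast fiber markers, 2 were lower. *Bckdha* was then at -0.46 and did not pass (limma adjusted p = 0.0724).

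Of 8 inflammatory genes that the receptor is known to repress, 4 were tested and 3 were higher in *mdx5cv*, where 20.9% of all tested genes were. The median log2 fold change was 2.93. These 3 averaged 1.92 (*Cxcl10*), 4.88 (*Ccl2*) and 7.96 (*Mmp13*) normalized counts in WT. They reached the level needed for the test only through *mdx5cv*, so the count and median were partly set by that filter. Once the filter was dropped, 5 genes of the list were higher and none was lower by limma. A minimum of 10 in every sample left none of the list higher. Each of these 3 genes had WT muscles below 10, so that minimum removed them untested and cannot show whether the rises hold. *Nos2*, the other gene tested, had a log2 fold change of -0.25 (limma adjusted p = 0.276). *Cxcl10*, a chemokine, had counts of 0 to 3.18 in WT and 14.4 to 34.0 in *mdx5cv*, with a log2 fold change of 3.26 ± 0.50 (SE; limma adjusted p = 0.000264). *Ccl2*, a monocyte chemokine, had counts of 1.11 to 11.7 in WT and 17.1 to 60.7 in *mdx5cv*, with a log2 fold change of 2.93 ± 0.53 (SE; limma adjusted p = 0.000782). *Mmp13*, a collagenase, had a log2 fold change of 2.93 ± 0.66 (SE; limma adjusted p = 0.00338). *Il6*, the best known of them, had a normalized count of at most 1.60 in any muscle and was not tested. All 6 macrophage markers rose in the same muscles, with summed normalized counts of 481 to 746 in WT and 3565 to 8548 in *mdx5cv*, and their part in these rises was not tested.

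Of 14 clock genes, 13 were tested, 3 were lower in *mdx5cv*, where 20.1% of all tested genes were, and the median log2 fold change was -0.22. With equal totals 1 was lower and 3 were higher. *Hlf*, an output factor of the clock, decreased by 1.15 ± 0.14 (SE) on the log2 scale (limma adjusted p = 4.14e-05). *Arntl* and *Clock*, the activators of the core loop, decreased by 0.76 and 0.33 (limma adjusted p = 0.0153 and 0.0150). Without *mdx5cv* 2, *Clock* was at -0.28 and did not pass (limma adjusted p = 0.0540), and with equal totals it was at 0.02 and *Arntl* at -0.41 (limma adjusted p = 0.893 and 0.197). *Dbp*, whose level swings strongly over the day in many tissues, had counts of 571 to 835 in WT and 626 to 912 in *mdx5cv* and a log2 fold change of 0.06 (limma adjusted p = 0.764), and with equal totals it was higher (0.42, limma adjusted p = 0.0210). Over the 7 lists together, 13 of the 71 genes tested were lower and 12 were higher, against 20.1% and 20.9% of all tested genes.

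**Figure D5:**
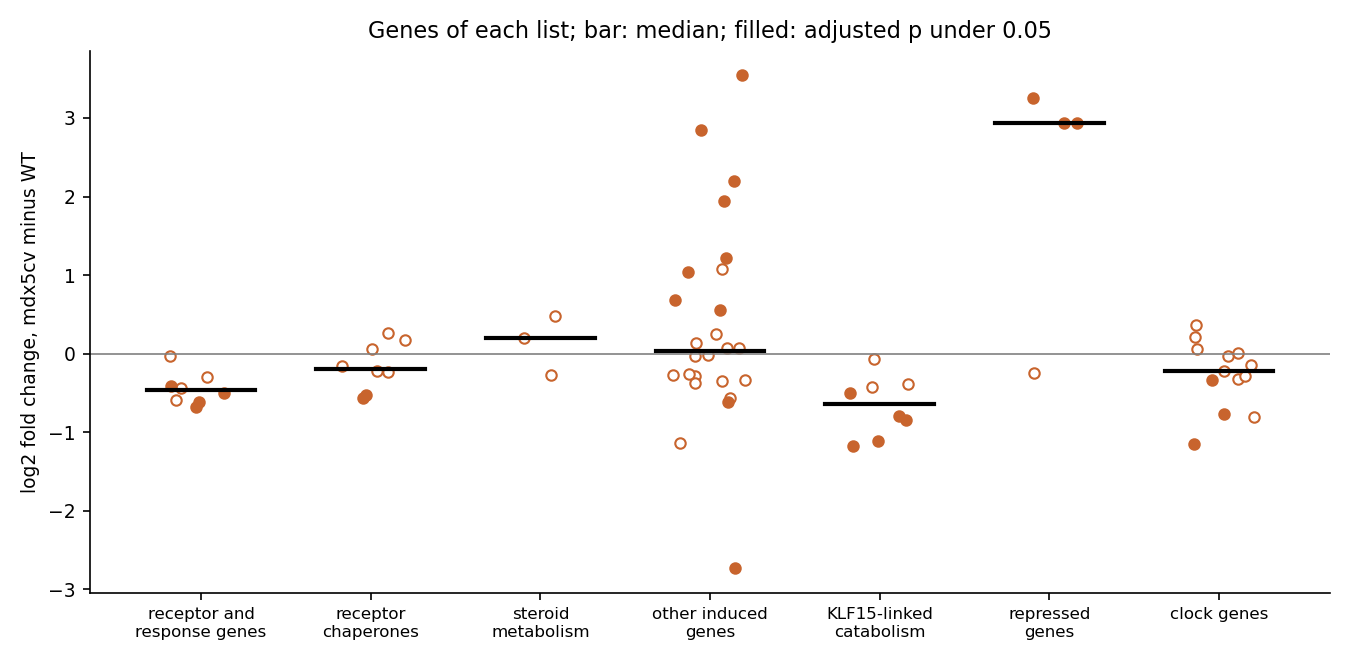
Log2 fold change, *mdx5cv* minus WT, of the tested genes of each list shown (points, spread sideways for legibility), with bars for the list median and filled points for an adjusted p under 0.05 by limma. *Cblb*, which had no read in *mdx5cv*, and the coregulator list are left off the plot. The receptor and response genes and the KLF15-linked catabolism genes lie mostly below 0, and the other induced genes lie on both sides.

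The tissue was checked against cell type markers and the label against *Dmd*. The 5 fast fiber markers had summed normalized counts of 845480 to 1045900 in WT and 609240 to 936950 in *mdx5cv*. *Dmd* was lower in *mdx5cv*, at 3461 to 4400 against 6169 to 8155 in WT (log2 fold change -0.81, limma adjusted p = 0.000177).

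Cell markers moved with the groups. Every marker list with tested genes, apart from the adipocyte list, deviated most in *mdx5cv* 4. In that muscle 7 of the 8 genes were lowest among the *mdx5cv* muscles. The adipocyte list deviated most in *mdx5cv* 1 (-2.81). Of the 5 fast fiber markers, *Ckm* (-0.75) and *Tnnt3* (-0.63) were lower, though neither passed without WT 3 or without *mdx5cv* 1. The median log2 deviation of the fast fiber list was -0.55 in *mdx5cv* 4 against -0.24 to 0.01 in *mdx5cv* 1 to 3. In WT 1, the WT muscle with the lowest median deviation of the 8 genes, it was 0.07. Regenerating fiber markers were higher for 6 of 6, with summed counts of 166 to 266 in WT and 2686 to 9711 in *mdx5cv*. Macrophage markers were higher for 6 of 6, and the list deviated most in *mdx5cv* 4 (3.85). Fibroblast and fibro-adipogenic markers were higher for 4 of 5 and slow fiber markers for 3 of 4. Endothelial markers were lower for 4 of 4, with sums of 2394 to 2882 in WT and 1438 to 1878 in *mdx5cv*. Adipocyte markers were lower for 3 of 4, with sums of 58.4 to 464 in WT and 14.8 to 51.9 in *mdx5cv*. Over all tested genes, 20.9% were higher and 20.1% lower. *Mymk* and *Chrng* (0.265 each in WT) and *Itgam* (3.88 in WT) reached the test level only through *mdx5cv*. *Cidec* and *Lep* averaged 7.39 and 3.67 in *mdx5cv* and reached it only through WT. A minimum of 10 in every sample took low genes out of the test. It left 4 regenerating, 4 macrophage and 1 slow fiber marker higher and no adipocyte marker lower. The satellite cell list had 1 of 2 tested genes higher, and the 3 tendon genes did not pass. The 4 T lymphocyte markers were below the level needed for the test, with sums of 1.06 to 5.73 in WT and 10.2 to 29.6 in *mdx5cv*. With each muscle centred on the mean of the 5 fast fiber markers, the median of all genes moved to 0.33, *Sgk1* was at -0.29 (limma adjusted p = 0.152), and none of the 8 genes was lower at an adjusted p under 0.05 by limma. The part of the cell makeup in the falls of *Sgk1*, *Zbtb16*, *Tsc22d3* and *Klf9* was not tested. Without *mdx5cv* 4, *Sgk1* (-0.50), *Klf9* (-0.29) and *Tsc22d3* (-0.36) passed by limma with adjusted p of 0.00543, 0.0370 and 0.0440, and *Zbtb16* (-0.47) did not.

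The genes lie on GRCm38 (GENCODE M21) as follows. *Hsd11b1* is on chromosome 1 from 193221634 to 193264075, *Klf15* on chromosome 6 from 90462576 to 90475238, *Zbtb16* on chromosome 9 from 48654297 to 48836222 and *Sgk1* on chromosome 10 from 21882184 to 21999903. *Fkbp5* is on chromosome 17 from 28399094 to 28517527, *Nr3c1* on chromosome 18 from 39410545 to 39519421, *Klf9* on chromosome 19 from 23141226 to 23168134 and *Tsc22d3* on chromosome X from 140539528 to 140600659. The counts are over annotated exons. *Fkbp5* overlaps 4 other annotated genes, *Hsd11b1* overlaps 3 and *Klf9* overlaps *Mir1192*. The library kit keeps the strand, but whether the counting used it is not stated, so reads of *Fkbp5* and *Hsd11b1* and of partners on the opposite strand may not have been told apart.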

How the data were processed

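Samples were grouped by the genotype and number in their titles (4 WT, 4 *mdx5cv*). Nothing says more than that these are separate samples, so p-values measure the spread between them. The authors deposited a signal per gene, that is, read counts divided by a size factor per sample. The submitters' processing notes name Trim Galore 0.6.4, STAR 2.6.0c, SAMtools 1.9, featureCounts, MultiQC 1.6, DESeq2 1.26.0, R 3.6.2 and the mm10 build. Whole reads were recovered for 100% of values (tolerance 0.01) when a column was divided by its lowest nonzero entry, giving 13175524 to 14921057 per muscle. At this depth 13677 of 55401 genes averaged 10 or more normalized counts and were tested.

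Groups were compared with limma 3.58.1 (R 4.3.3) without covariates on log2(normalized count + 1), using lmFit and trended eBayes, two-sided, with Benjamini-Hochberg adjustment over all tested genes. Fold changes are on this scale, which understates low genes. edgeR 4.0.16 (quasi-likelihood) and DESeq2 1.42.0 were run on recovered reads as alternatives. The others were a pseudocount of 0.1 or 10, equal totals, TMM factors or median centring, no filter or a minimum of 10 per sample, eBayes with no trend, a replicate block and each replicate left out. Centring on fast fiber markers was added after seeing the data. Scripts were tested on simulated data. Python 3.11.15 with numpy 2.4.6, pandas 2.3.3 and matplotlib 3.10.9 was used for annotation and figures.

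The 8 genes, the 7 pathway lists (82 genes) and the marker lists were chosen with earlier results of these data known. Named from each list were the 2 highest and 2 lowest genes that passed and its best known gene, except 1 gene that is not reported here. The other genes named were chosen after their values were seen, apart from those most like *Nr3c1* and *Fkbp5* (5 each, Pearson r after the group means were taken off). Promoter windows are from RefSeq on GRCm38.p6 and gene positions from GENCODE M21. No window of *Nr3c1* or *Zbtb16* was searched, so the motif counts do not cover these genes.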

Additional observations from a re-analysis of the deposited data

Results flagged for a closer look

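In a group of 4 muscles, a muscle was singled out when its gap to the nearest other, divided by the range, was above 0.829. Of 90 sets tested, 9 were singled out. Chance gives about 1 in 20, or 4.5, where no set is picked by its values. The 9 include *Hsp90ab1*, *Fkbp4* and *Pdk4*, added after their values were seen, so they cannot be compared with that number. None was a set of the 8 glucocorticoid genes. On the log2 scale of normalized counts, *Hsp90ab1*, the constitutive HSP90, was lowest in WT 2 at 11.67, against 12.82 to 12.98 in the other WT muscles. *Fkbp4*, the cochaperone that opposes FKBP51, was lowest in the same muscle at 8.298, against 9.612 to 9.858. *Pdk4*, a brake on glucose oxidation induced by glucocorticoids and fasting, was highest in *mdx5cv* 2 at 11.2, against 8.377 to 8.654 in the other *mdx5cv* muscles. These 3 genes, with *Cebpd*, were added after their values were seen. The clock genes *Arntl* (6.126, others 6.42 to 6.476) and *Clock* (8.814, others 9.026 to 9.061) were lowest in *mdx5cv* 2. *Ncor1* was highest in *mdx5cv* 1 at 10.9, against 10.79 to 10.8. *Cblb* was lowest in WT 1 at 8.115, against 8.449 to 8.508. Among marker lists, the median log2 deviation of the satellite cell list was lowest in WT 3 (-0.4607, others 0.1392 to 0.1689) and that of the tendon list in WT 4 (-0.592, others 0.3258 to 0.5079).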

How the results depend on the processing

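The falls depended on scaling. With equal totals, *Nr3c1* was at 0.33 (limma adjusted p = 0.0227), *Klf15* at 0.059, *Tsc22d3* at -0.14, *Klf9* at -0.052, *Zbtb16* at -0.32 and *Sgk1* at -0.26, with 0 of the 8 genes lower and 1 higher by limma and 6 pathway genes lower and 29 higher. With centring on fast fiber markers they were at 0.30, 0.030, -0.17, -0.081, -0.35 and -0.29, with 0 of the 8 lower, and 5 pathway genes lower and 19 higher. These scalings moved all genes together. With centring on the median, *Hsd11b1* passed at -0.69. With no variance trend, 1 of the 8 (*Sgk1*) was lower, and *Tsc22d3* (-0.50), *Klf9* (-0.41) and *Zbtb16* (-0.68) did not pass, the cause of which was not tested. Past the fold change threshold, 2844 genes of the whole table were called with no filter and 1004 with at least 10 in every sample, against 1861 as reported. These filters change how many genes are tested, and the second left 7 pathway genes higher. Leaving out each replicate gave ranges of -0.066 to 0.0061 for *Nr3c1*, -0.67 to -0.31 for *Fkbp5*, -0.61 to -0.36 for *Tsc22d3*, -0.50 to -0.29 for *Klf9*, -0.87 to -0.47 for *Zbtb16* and -0.77 to -0.30 for *Hsd11b1*, and 1 to 4 genes lower, with 1 without WT 3. With the replicate number as a block, *Zbtb16* (-0.68) did not pass (limma adjusted p = 0.0623) and *Hsd11b1* (-0.60) passed (0.0246). Deviations of same-numbered muscles correlated by 0.086, 0.034, 0.121 and 0.114. In the other group, 6 of the 8 muscles were most like the muscle of their own number. The labels do not say whether same-numbered muscles share more than the number, and a pairing or batch behind it was not tested. At this depth *Cxcl10*, *Ccl2* and *Mmp13* rest on few reads in WT.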

Other observations

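*Pdk4*, one of the other genes induced by glucocorticoids, was far higher in *mdx5cv* 2 than in the other 3 *mdx5cv* muscles. Its normalized counts were 738, 1976, 1900 and 999 in WT 1 to 4 and 371, 2349, 331 and 402 in *mdx5cv* 1 to 4. *Cebpd* was also highest in *mdx5cv* 2, with counts of 107, 183, 42.3 and 71.9 in *mdx5cv* 1 to 4. *mdx5cv* 2 was the muscle with the highest level of 7 of the 8 receptor and response genes within its group, and it had the lowest *Arntl* (68.9) and *Clock* (449) of all muscles. *Pdk4* and *Cebpd* were named after their values were seen, and the log2 fold change between groups was -1.14 for *Pdk4* (limma adjusted p = 0.095) and -0.57 for *Cebpd* (limma adjusted p = 0.193).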
